A study of Arabidopsis thaliana with 24 samples.

Results

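The genes described here are the 29 Aux/IAA genes of Arabidopsis and 7 GH3 genes, GH3.1 to GH3.6 and GH3.17, chosen by gene identifier. Of these 36 members, 32 had at least 5 reads in at least 6 of the 24 libraries, 26 Aux/IAA genes and 6 GH3 genes, among 20094 protein-coding genes that passed the same limit. Auxin brings Aux/IAA proteins, which are repressors, to the TIR1/AFB receptors, where they are marked for degradation, and this frees the ARF transcription factors to act on their target genes. Aux/IAA, GH3 and SAUR genes are the classic early targets, so many of them rise within minutes of an auxin treatment. GH3 enzymes join auxin to amino acids, and the Aux/IAA genes encode the repressors themselves, so both families are known as brakes on the response that induces them.

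Whole rosettes were harvested from phot1, phot2, and phot1phot2 plants, which lack one or both of the blue light receptors phototropin1 and phototropin2, and from the wild type. All 4 genotypes are in the Col-0 gl1 background, which forms few or no trichomes. Each genotype was taken 30 min after UV-C at 100 mJ cm-2 and without treatment, with 3 biological replicates of at least 4 rosettes in each of the 8 groups. Plants grew in an 8 h photoperiod and were 4 weeks old by the sample labels (3 weeks by the methods of the study). Each mutant genotype is a single line here, and a rosette mixes tissues, so fewer cells of a type and less RNA per cell cannot be told apart.

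Total counts per library were 20897905 to 28723145 after UV-C and 33200727 to 41902444 in non-stress conditions, so depth and treatment cannot be told apart. PHOT1 transcripts were below the wild type by a log2FC of -1.34 in phot1 and -1.30 in phot1phot2, and PHOT2 transcripts by -0.71 in phot2 and -0.70 in phot1phot2, all without treatment. The summed level of 5 rosette leaf markers was 68000 to 96800 reads per 1000000 scaled reads (CPM) after UV-C, against 49400 to 59200 CPM without it. LHCB1.3 and LHCA1 were higher after UV-C and made up most of that difference, while the mean of RBCS1A was lower in every genotype and that of RCA in all but phot1phot2. Root hair markers reached at most 0.0939 CPM, seed storage markers 0.102 CPM, pollen markers 0.529 CPM, trichome markers 3.31 CPM, and flower markers 4.45 CPM in any library. Clock genes moved with the treatment. The summed evening genes were at 18.6 to 32.5 CPM after UV-C, against 53.2 to 146 CPM without it, and without treatment they were at 53.2 to 71.2 CPM in phot1phot2 against 130 to 146 CPM in the wild type. The summed morning genes were at 1230 to 1260 CPM after UV-C in the wild type against 532 to 892 CPM without it, overlapped between treatments in phot2, and were at 1260 to 1340 CPM after UV-C in phot1phot2 against 1360 to 1680 CPM. CCA1 and LHY made up most of the morning sums. The means of PRR7 and PRR9 were higher after UV-C in every genotype. For PRR7 they were 47.8 CPM against 7.66 CPM in phot2 and 52.8 CPM against 8.45 CPM in phot1phot2. Among the evening genes the mean of GI was higher after UV-C in every genotype, and the means of the others were lower. The time of day of each harvest was not given in the labels, and the part of the clock in the results was not tested.

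Promoters are shown for 5 members that were higher after UV-C and carry an auxin response element, and for 2 members, GH3.1 and IAA29, that were higher without one. Each line gives the 250 bases before the annotated start of the gene, 5′ to 3′ on the strand of the gene, with letters from RefSeq's TAIR10.1 assembly. Capitals mark TGTCTC and TGTCGG, 2 forms of the auxin response element to which ARF proteins bind, and CACGTG, the G-box bound by PIF and other factors. Both strands were searched, so GAGACA and CCGACA are the same elements read on the other strand, and none of the 3 words overlapped another in these lines.
GH3.3: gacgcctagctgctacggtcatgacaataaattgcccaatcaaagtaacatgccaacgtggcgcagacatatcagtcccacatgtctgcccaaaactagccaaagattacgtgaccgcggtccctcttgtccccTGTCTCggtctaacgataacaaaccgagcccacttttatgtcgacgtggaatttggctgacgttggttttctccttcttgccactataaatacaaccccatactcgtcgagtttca
GH3.5: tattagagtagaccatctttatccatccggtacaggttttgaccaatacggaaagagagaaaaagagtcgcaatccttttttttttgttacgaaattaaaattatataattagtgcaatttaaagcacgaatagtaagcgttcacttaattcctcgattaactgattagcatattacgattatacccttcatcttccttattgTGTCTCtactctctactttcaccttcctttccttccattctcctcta
IAA1: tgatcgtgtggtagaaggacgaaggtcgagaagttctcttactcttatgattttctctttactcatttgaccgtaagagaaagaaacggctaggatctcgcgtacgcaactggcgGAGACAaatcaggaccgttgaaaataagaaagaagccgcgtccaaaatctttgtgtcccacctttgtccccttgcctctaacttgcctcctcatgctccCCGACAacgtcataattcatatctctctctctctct
IAA5: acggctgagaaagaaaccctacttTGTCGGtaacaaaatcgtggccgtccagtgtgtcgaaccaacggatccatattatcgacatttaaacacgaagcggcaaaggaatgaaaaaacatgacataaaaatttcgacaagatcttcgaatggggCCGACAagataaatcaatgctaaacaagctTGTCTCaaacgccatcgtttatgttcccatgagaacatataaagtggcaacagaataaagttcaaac
IAA19: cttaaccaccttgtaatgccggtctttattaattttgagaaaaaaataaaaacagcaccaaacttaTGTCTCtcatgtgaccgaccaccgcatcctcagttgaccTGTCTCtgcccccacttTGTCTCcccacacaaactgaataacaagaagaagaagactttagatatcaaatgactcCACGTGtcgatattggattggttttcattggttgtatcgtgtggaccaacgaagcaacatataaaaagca
GH3.1: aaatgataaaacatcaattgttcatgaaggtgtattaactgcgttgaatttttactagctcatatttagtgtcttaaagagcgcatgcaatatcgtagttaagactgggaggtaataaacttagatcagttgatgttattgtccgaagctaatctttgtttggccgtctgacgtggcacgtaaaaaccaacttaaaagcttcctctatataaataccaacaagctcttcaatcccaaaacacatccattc
IAA29: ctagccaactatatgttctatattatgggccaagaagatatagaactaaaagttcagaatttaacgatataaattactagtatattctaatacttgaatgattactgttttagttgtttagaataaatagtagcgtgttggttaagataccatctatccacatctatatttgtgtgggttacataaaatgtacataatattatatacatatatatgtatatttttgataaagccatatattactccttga

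IAA19 (AT3G15540; chr3:5263751-5264000, plus strand) held 3 copies of TGTCTC, at 184, 145, and 128 bases before the start, and a CACGTG at 70 bases. IAA5 (AT1G15580; chr1:5366498-5366747, minus strand) held TGTCTC at 67 bases before the start and TGTCGG at 226 and 97 bases. IAA1 (AT4G14560; chr4:8360746-8360995, plus strand) held TGTCTC at 135 bases and TGTCGG at 36 bases, both read on the other strand. The single TGTCTC stood 116 bases before the start of GH3.3 (AT2G23170; chr2:9866563-9866812, minus strand) and 47 bases before that of GH3.5 (AT4G27260; chr4:13653329-13653578, plus strand). The windows of GH3.1 (AT2G14960; chr2:6453798-6454047, minus strand) and IAA29 (AT4G32280; chr4:15583082-15583331, plus strand) held none of the 3 words. Over the tested members, TGTCTC or TGTCGG was found in 15 of 32, against 14.8% of the promoters of all tested genes, and CACGTG in 4 of 32, against 7.4%. TGTCTC alone was in 11 of 32 members and in 10.6% of all promoters, and TGTCGG alone in 6 of 32 members and in 4.6% of all promoters. A TGTCTC or TGTCGG stood before 7 of the 10 members called after UV-C and before 8 of the other 22. The 10 include GH3.1, which held neither and passed the count limit only through UV-C libraries. These matches describe the letters only.

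Levels spanned several orders of magnitude. On the scale of TMM-scaled CPM per kilobase of exon, IAA16 was the most abundant of the 29 Aux/IAA genes, and GH3.6, an auxin-conjugating enzyme, the most abundant of the 7 GH3 genes. In non-treated wild type, the level per kilobase averaged 97.0 for IAA16, 76.0 for IAA8, 75.2 for IAA7, 71.5 for IAA9, and 56.2 each for IAA4 and IAA2. These 6 genes made up 72.6% of the summed Aux/IAA level. GH3.6 averaged 17.9 on that scale and made up 58.6% of the GH3 sum, ahead of GH3.5 at 6.34, GH3.17 at 3.89, and GH3.3 at 1.82. IAA5, IAA6, and IAA30 were each under 1 in the same samples.

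Among the 4 members that did not pass the count limit, GH3.4 had no read in any library, and IAA15, IAA20, and IAA33 had at most 7 reads in any library. IAA31, IAA32, and IAA34 passed the limit in 10, 13, and 6 libraries and are hardly measured. GH3.1 passed in 12 libraries, all of them after UV-C, so its appearance among the tested genes already required a difference. IAA20 and IAA30 to IAA34 belong to the Aux/IAA proteins that lack the segment recognised by the receptors.

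**Figure D1:**
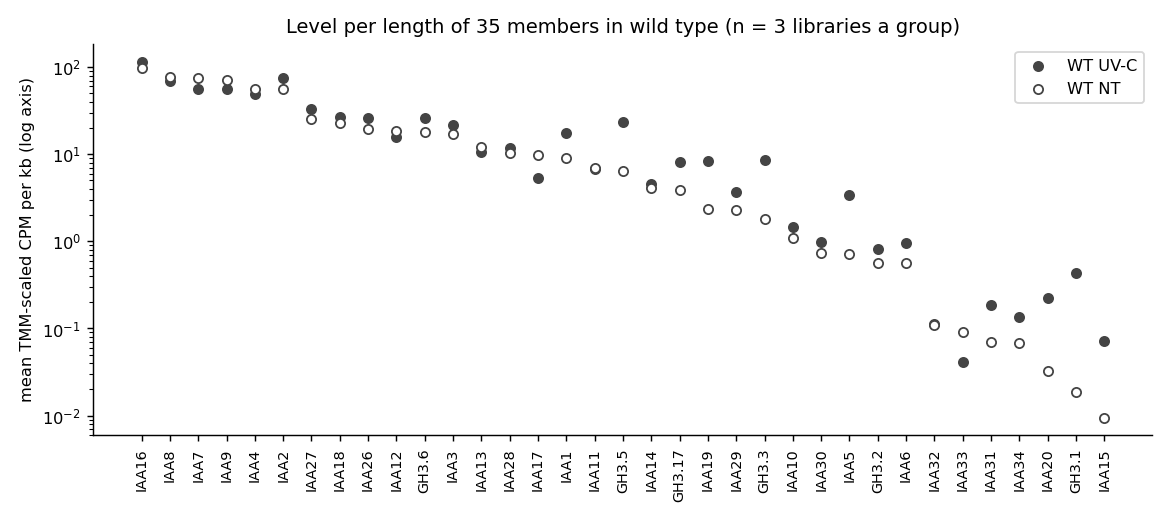
Mean level of each member in wild type, in TMM-scaled CPM per kilobase of exon on a log axis, after UV-C (filled) and without treatment (open), with members ordered by the level without treatment and GH3.4, which had no reads, left out. IAA16 leads at 115 after UV-C and 97.0 without treatment, and GH3.1 (0.433 and 0.0185) sits near the low end.

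The first question was which members changed within 30 min of UV-C in each genotype. Apart from GH3.1, whose place among the tested genes required a difference, 9 of 31 tested members rose in at least 1 genotype and none fell by the rule used (an absolute log2FC above 1 and, by the edgeR quasi-likelihood F test, a p below 0.01 once adjusted over all 20094 genes by Benjamini-Hochberg). GH3.3, GH3.5, IAA5, and IAA19 rose in all 4 genotypes, IAA1 and IAA29 in the 3 mutants, IAA6 in phot1 and phot2, IAA30 in phot2, and GH3.17 in the wild type. The count was 7 of 31 in phot1 (6.37% of all tested genes were called higher there), 8 of 31 in phot2 (7.9%), 6 of 31 in phot1phot2 (7.2%), and 5 of 31 in the wild type (6.88%). Calls in the lower direction took 2.09%, 2.34%, 3.55%, and 2.35% of all tested genes in the same order, and 0 of 31 members. At an unadjusted p under 0.05 there were 19, 23, 22, and 20 of the 32 members in either direction, against 54.2%, 57.4%, 59.5%, and 55.6% of all tested genes. DESeq2 called 8, 10, 7, and 6 of the 32 members and the likelihood ratio test 8, 9, 8, and 6. With GH3.1, which met the same limits in all 4 genotypes, each count of 31 called higher is larger by 1. The counts of the 32 members already include it. The median log2FC of the 31 members was 0.322 in phot1, 0.412 in phot2, 0.218 in phot1phot2, and 0.404 in the wild type, against medians of all genes between -0.00274 and 0.00906. Without a TMM factor the median of all genes moved to -0.135, -0.112, -0.235, and -0.119 in that order, and that of the 32 members with GH3.1 to 0.215, 0.337, -0.0128, and 0.295, so its sign in phot1phot2 depended on the scaling.

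**Figure D2:**
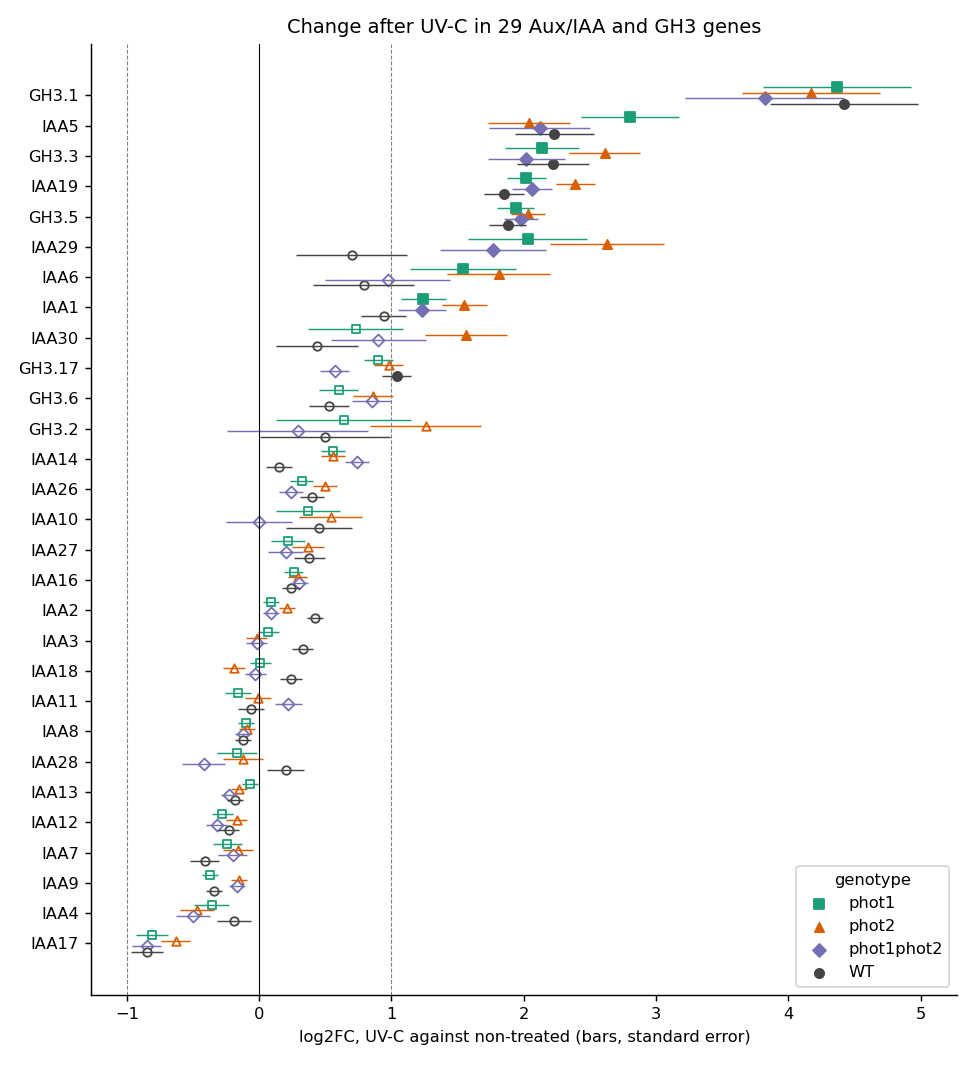
log2FC after UV-C against non-treated for 29 members in the 4 genotypes, ordered by their mean, with bars for the standard error. Filled symbols mark members called at an adjusted p below 0.01 beyond the dashed lines at 1 and -1, open symbols the others, and the weakly counted IAA31, IAA32, and IAA34 are left out. GH3.1 stands at 3.82 to 4.42, then IAA5, GH3.3, IAA19, and GH3.5 between 1.85 and 2.80, while IAA17 at the bottom lies between -0.85 and -0.63.

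GH3.1, an auxin-conjugating enzyme, had very few reads. It had 26, 13, and 23 reads after UV-C in phot1, against 0, 4, and 1 in the non-treated libraries. The counts were 28, 18, and 20 after UV-C in phot2 against 4, 1, and 2 without it, and 19, 11, and 12 in phot1phot2 against 2, 2, and 1. In the wild type they were 28, 13, and 18 after UV-C against 1, 3, and 1. Treated and non-treated libraries did not overlap in any genotype. From the summed counts, the ratio per scaled library size was 22.7 in phot1 (95% exact interval 9.2 to 72.2), 19.1 in phot2 (8.76 to 49.3), 15.3 in phot1phot2 (6.07 to 49.6), and 23.5 in the wild type (9.52 to 75.0). These intervals cover counting error only. The fitted log2FC was 4.37, 4.17, 3.82, and 4.42 in that order and is given as a description, since the count limit was met only in UV-C libraries.

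GH3.3 and GH3.5, enzymes of the same family that act on auxin, were measured from far more reads. GH3.3 was at 11.7, 17.1, and 16.4 CPM in UV-C treated phot1 against 3.95, 2.40, and 3.94 CPM without treatment, and at 28.4, 19.9, and 13.9 CPM in phot2 against 3.89, 2.70, and 3.54 CPM. It was at 11.9, 9.59, and 11.2 CPM in phot1phot2 against 2.68, 2.80, and 2.61 CPM, and at 22.8, 10.6, and 21.2 CPM in the wild type against 4.62, 4.25, and 2.71 CPM. Every treated library was above every non-treated one, with the widest spread among treated libraries in phot2 and the wild type. The log2FC was 2.14 ± 0.28 in phot1, 2.61 ± 0.27 in phot2, 2.02 ± 0.29 in phot1phot2, and 2.22 ± 0.27 in the wild type (± SE, adjusted p at most 5e-06). GH3.5 was at 59.7, 69.9, and 56.0 CPM in UV-C treated phot1 against 16.7, 14.5, and 17.2 CPM without it, and at 81.0, 86.0, and 91.5 CPM in phot2 against 19.7, 19.8, and 23.9 CPM. It was at 89.3, 84.9, and 70.8 CPM in phot1phot2 against 22.1, 17.1, and 23 CPM, and at 57.0, 43.8, and 64.4 CPM in the wild type against 16.7, 14.4, and 13.7 CPM. Again the groups did not overlap, and the log2FC of GH3.5 lay close together at 1.94, 2.03, 1.98, and 1.88 (adjusted p at most 2.2e-10).

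The Aux/IAA genes IAA5 and IAA19 rose in all 4 genotypes. IAA19, a repressor known from hypocotyl bending, was at 6.48, 6.42, and 7.47 CPM in UV-C treated phot1 against 1.94, 1.76, and 1.29 CPM, and at 10.8, 11.3, and 7.85 CPM in phot2 against 1.78, 1.97, and 1.94 CPM. It was at 7.44, 7.80, and 6.50 CPM in phot1phot2 against 1.70, 1.65, and 1.82 CPM, and at 8.47, 8.40, and 8.76 CPM in the wild type against 2.04, 2.66, and 2.41 CPM. The replicates were tight, the groups were far apart, and the log2FC was 2.02, 2.39, 2.06, and 1.85 (adjusted p at most 8.13e-10). IAA5 was at 1.70, 1.05, and 1.55 CPM in UV-C treated phot1 against 0.172, 0.102, and 0.353 CPM, and at 2.49, 2.44, and 1.41 CPM in phot2 against 0.540, 0.563, and 0.408 CPM. It was at 1.16, 1.05, and 0.867 CPM in phot1phot2 against 0.184, 0.160, and 0.344 CPM, and at 2.95, 2.24, and 2.70 CPM in the wild type against 0.385, 0.596, and 0.705 CPM. The log2FC of IAA5 was 2.80 ± 0.37 in phot1, 2.04 ± 0.31 in phot2, 2.12 ± 0.38 in phot1phot2, and 2.23 ± 0.30 in the wild type (± SE, adjusted p at most 6.3e-05). IAA5 overlaps a gene on the other strand, and the counting did not separate strands, so its count may include reads of that gene.

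IAA29, a repressor gene known as a target of PIF factors, rose in the mutants. It was at 6.95, 5.36, and 4.93 CPM in UV-C treated phot1 against 2.08, 0.995, and 1.09 CPM, at 8.15, 9.95, and 9.09 CPM in phot2 against 2.07, 1.38, and 0.892 CPM, and at 13.4, 8.40, and 8.24 CPM in phot1phot2 against 2.41, 5.28, and 1.18 CPM. In the wild type it was at 4.07, 5.55, and 4.74 CPM after UV-C and at 4.08, 3.48, and 1.22 CPM without it. The wild type groups overlapped and the mutant groups did not. The log2FC was 2.03 in phot1, 2.63 in phot2, and 1.77 in phot1phot2 (adjusted p 7.29e-04, 2.62e-05, and 7.47e-04), and 0.70 in the wild type (adjusted p = 0.173). The difference from the wild type in this change was 1.34, 1.93, and 1.07, with adjusted p of 0.627, 0.0918, and 0.261, so a difference between genotypes was not shown. For phot2 the likelihood ratio test gave 2.08 with an adjusted p of 0.000786 in place of 0.0918. Of 4 PIF genes tested, PIF4 and PIF5 also rose after UV-C in all 4 genotypes, with PIF4 at a log2FC of 2.08 (phot1), 2.66 (phot2), 2.99 (phot1phot2), and 1.92 (wild type). PIF3 (0.23, 0.51, 0.71, and 0.04 in the same order) and PIF7 (-0.31, -0.09, 0.03, and -0.51) were not called. Between 6.37% and 7.9% of all tested genes were called higher. The part of PIF factors in the change of IAA29 was not tested.

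IAA6, IAA30, IAA1, and GH3.17 passed the rule in some genotypes. IAA6 (AT1G52830), a repressor gene with few reads, was at 0.662, 0.652, and 1.32 CPM in UV-C treated phot1 against 0.221, 0.383, and 0.294 CPM, and at 0.847, 1.49, and 0.640 CPM in phot2 against 0.18, 0.375, and 0.280 CPM. It was at 0.386, 0.500, and 0.390 CPM in phot1phot2 against 0.157, 0.267, and 0.221 CPM, and at 0.936, 0.653, and 0.882 CPM in the wild type against 0.272, 0.646, and 0.515 CPM. The treated libraries were above the non-treated ones in each genotype, with the log2FC at 1.54, 1.81, 0.97, and 0.79 (adjusted p 0.00283, 0.000523, 0.0841, and 0.0861). Its calls rested on single libraries: in phot1 the adjusted p was 0.0171 without non-treated replicate 1 and 0.0411 without UV-C replicate 3, and in phot2 it was 0.0104 without UV-C replicate 2. IAA30 (AT3G62100), one of the proteins without the receptor-binding segment, was at 0.662, 0.652, and 0.751 CPM in UV-C treated phot1 against 0.368, 0.434, and 0.441 CPM, and at 1.38, 2.19, and 0.982 CPM in phot2 against 0.427, 0.469, and 0.637 CPM. It was at 0.580, 0.949, and 0.607 CPM in phot1phot2 against 0.341, 0.213, and 0.566 CPM, and at 0.983, 0.980, and 0.992 CPM in the wild type against 0.770, 0.522, and 0.895 CPM. All 4 pairs of groups were apart, but the rule was passed only in phot2, where the log2FC was 1.56 (adjusted p 0.000237), against 0.73, 0.90, and 0.44 in phot1, phot1phot2, and the wild type (adjusted p 0.0952, 0.0363, and 0.262). Its difference between phot2 and the wild type was 1.12 (adjusted p = 0.216).

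IAA1, a repressor gene at chr4:8360996-8362033 near IAA14 on the other strand, rose by 1.24 (phot1), 1.55 (phot2), and 1.23 (phot1phot2) on the log2 scale. In the wild type its log2FC was 0.94 and its adjusted p 1.1e-04, so that it missed the rule by the size of the change alone. Without phot1phot2 non-treated replicate 1 the value in phot1phot2 was 0.95, and without a TMM factor it was 0.99. Without wild type non-treated replicate 3 the wild type value was 1.06. GH3.17 (AT1G28130), an enzyme that joins auxin to glutamate, had log2FC values of 0.90 (phot1), 0.98 (phot2), 0.57 (phot1phot2), and 1.04 (wild type), all with an adjusted p below 0.01. Its wild type call was lost without non-treated replicate 2 (0.95), UV-C replicate 3 (0.93), or a TMM factor (0.92), and in phot2 it was gained without UV-C replicate 3 (1.03).

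**Figure D3:**
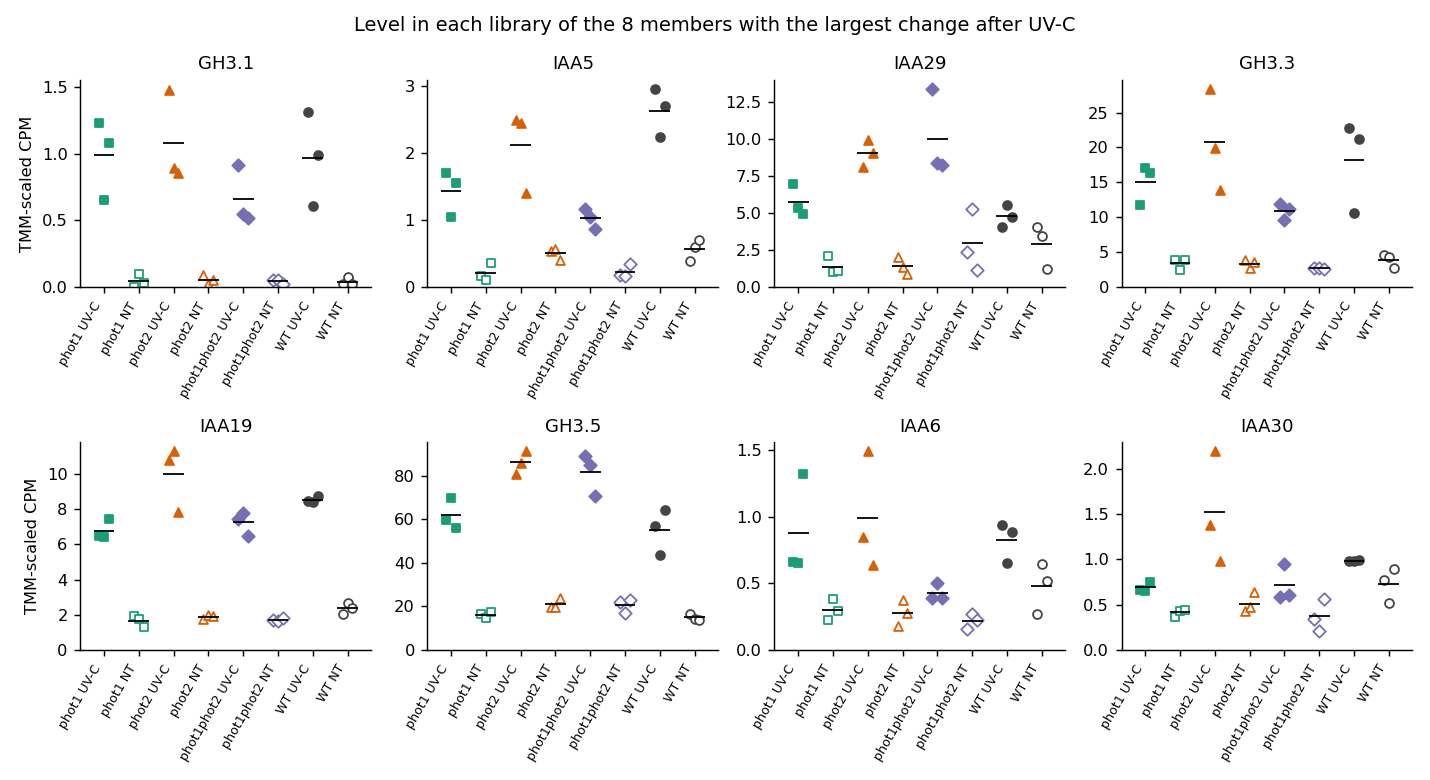
Level in each library, in TMM-scaled CPM, of the 8 members with the largest log2FC after UV-C among those called, by genotype and treatment, with filled symbols for UV-C, open symbols for non-treated (NT), and a line at the mean of 3 libraries. Treated libraries lie above non-treated ones in every panel and genotype except for IAA29 in the wild type (4.07 to 5.55 CPM after UV-C and 1.22 to 4.08 CPM without it).

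The other 19 well-counted members did not pass the rule, although 7 of them in phot1, 7 in phot2, 7 in phot1phot2, and 8 in the wild type passed on adjusted p alone. Of all tested genes, 35.2%, 39.8%, 43%, and 37.2% did so, but these shares include called genes, which the 19 leave out. Of the members that passed on adjusted p alone, 4, 5, 3, and 5 were higher after UV-C and 3, 2, 4, and 3 were lower. The log2FC of the 19 after UV-C lay between -0.81 and 0.64 in phot1, between -0.63 and 1.26 in phot2, between -0.85 and 0.85 in phot1phot2, and between -0.85 and 0.53 in the wild type. The most abundant repressor genes were among them. IAA16 (AT3G04730) was at 251, 257, and 236 CPM in UV-C treated phot1 against 222, 209, and 192 CPM, at 234, 261, and 235 CPM in phot2 against 209, 203, and 187 CPM, at 283, 268, and 262 CPM in phot1phot2 against 220, 237, and 203 CPM, and at 223, 244, and 231 CPM in the wild type against 209, 202, and 178 CPM. Treated IAA16 libraries were above the non-treated ones by a log2FC of 0.24 to 0.30 (adjusted p 0.00113 to 0.00731), well short of the limit on size. IAA17 (AT1G04250), the repressor known as AXR3, was at 9.22, 7.72, and 9.86 CPM in UV-C treated phot1 against 15.6, 16.1, and 15.4 CPM, at 9.42, 10.9, and 8.41 CPM in phot2 against 15.7, 15.7, and 12.9 CPM, at 8.50, 9.84, and 10 CPM in phot1phot2 against 14.9, 18.0, and 18.2 CPM, and at 6.98, 6.62, and 7.72 CPM in the wild type against 11.2, 13.5, and 13.7 CPM. IAA17 was lower after UV-C in every genotype, at -0.81, -0.63, -0.85, and -0.85 (adjusted p at most 9.91e-05), and also short of the limit, which it passed in phot1phot2 only without a TMM factor (-1.09). Its neighbour IAA3, which lies 6388 bases away and is read in the other direction, had a log2FC of 0.07, -0.02, -0.02, and 0.33 in phot1, phot2, phot1phot2, and the wild type. The wild type value alone passed on adjusted p (0.00104), and IAA3 overlaps a gene on the other strand.

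GH3.6 (AT5G54510) was at 51.4, 63.5, and 54.0 CPM in UV-C treated phot1 against 38.2, 34.5, and 38.6 CPM, at 62.2, 76.4, and 65.3 CPM in phot2 against 40.7, 38.8, and 33.2 CPM, at 77.5, 84.0, and 71.8 CPM in phot1phot2 against 47.4, 41.5, and 40.4 CPM, and at 59.6, 44.2, and 76.7 CPM in the wild type against 49.3, 42.7, and 32.5 CPM. The mutant groups were apart, while one treated wild type library lay within the range of the non-treated ones. The log2FC was 0.60, 0.86, 0.85, and 0.53, with an adjusted p below 0.01 in each genotype. Summed over the 7 GH3 genes, the level per kilobase was 68.3 ± 8.01 in UV-C treated phot1 against 29.9 ± 2.33, 89.4 ± 3.83 in phot2 against 33.2 ± 0.938, 84.6 ± 6.19 in phot1phot2 against 36.1 ± 2.90, and 67.2 ± 15.7 in the wild type against 30.5 ± 4.85 (SD, n = 3). Summed over the 29 Aux/IAA genes it was 619 ± 6.16 against 618 ± 39.1 in phot1, 624 ± 31.9 against 587 ± 18.9 in phot2, 637 ± 18.5 against 631 ± 36.8 in phot1phot2, and 621 ± 3.01 against 595 ± 22.8 in the wild type. The GH3 sums did not overlap between treated and non-treated libraries in any genotype. The Aux/IAA sums overlapped in phot1 and phot1phot2, while the lowest treated library stood just above the highest non-treated one in phot2 (603 against 601) and the wild type (618 against 614).

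The next comparison set each mutant against the wild type in non-stress conditions. No member was called in phot1 (0.124% of all tested genes were), in phot2 (0.831%), or in phot1phot2 (0.737%) under the quasi-likelihood F test of edgeR. At an unadjusted p under 0.05 there were 12, 11, and 18 members, against 11.9%, 18.7%, and 29.8% of all tested genes. DESeq2 called 0 in each, and the likelihood ratio test called 1, 0, and 1. The member called by the likelihood ratio test was IAA5, with -1.57 for phot1 (adjusted p 0.00516) and -1.25 for phot1phot2 (adjusted p 0.00653), while the quasi-likelihood test gave -1.44 (adjusted p = 0.0741) and -1.25 (adjusted p = 0.0287). On adjusted p alone, 6 members differed in phot1phot2, as did 6.35% of all tested genes. They were GH3.17 (0.85), IAA14 (0.52), IAA3 (0.45), IAA18 (0.35), and IAA2 (0.33), which were higher, and IAA9 (-0.35), which was lower. GH3.17 was at 20.3, 17.9, and 19.4 CPM in non-treated phot1phot2 against 11.8, 9.19, and 11 CPM in the wild type, with no overlap (adjusted p 2.1e-05).

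After UV-C, 2 members were called in phot1phot2 against the wild type, where 3.2% of all tested genes were called. On adjusted p alone the count was 1 in phot1, 2 in phot2, and 5 in phot1phot2, against 0.328%, 8.28%, and 24.2% of all tested genes. With both limits none was called in phot1 (0.0946%) or phot2 (2.06%), where the likelihood ratio test called 0 and 0 and DESeq2 called 0 and 1. In phot1phot2 the likelihood ratio test called 5 and DESeq2 called 2, and leaving out 1 library gave 2 to 4, with 4 without wild type UV-C replicate 2. The shares of all tested genes given here are those of the quasi-likelihood test with all libraries. The counts of the other tests and fits have no such share beside them. An unadjusted p under 0.05 was found for 8, 10, and 16 members in phot1, phot2, and phot1phot2, against 16.2%, 28.9%, and 45.8% of all tested genes. The mutants and the wild type share the wild type libraries, so the 3 comparisons are not separate. IAA14 (AT4G14550), a repressor known for blocking lateral root formation when stabilised, was at 20.1, 19, and 15.9 CPM in UV-C treated phot1phot2, 14, 13.7, and 12.6 CPM in phot1, 14, 12, and 11.9 CPM in phot2, and 8.29, 8.68, and 8.49 CPM in the wild type. Each mutant was above the wild type in every library, and phot1phot2 was above both single mutants. The log2FC against the wild type was 1.11 in phot1phot2 (adjusted p 2.24e-08), 0.66 in phot1 (9.88e-04), and 0.57 in phot2 (3.54e-04), of which the single mutant values stayed under the limit on size. Without a TMM factor the phot1phot2 value was 0.93, the median of all genes in that comparison was -0.203, and 24.8% of the called genes were higher, against 51.7% with the factor. In non-stress conditions IAA14 was at 10.9, 11.6, and 10.5 CPM in phot1phot2, 9.15, 9.72, and 8.55 CPM in phot1, 9.49, 8.00, and 8.16 CPM in phot2, and 7.45, 7.31, and 8.13 CPM in the wild type. The phot1phot2 libraries were again highest, by a log2FC of 0.52 (adjusted p 5.39e-04).

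IAA5 was called in the other direction. It was at 1.16, 1.05, and 0.867 CPM in UV-C treated phot1phot2 against 2.95, 2.24, and 2.70 CPM in the wild type, and the log2FC was -1.36 ± 0.29 (± SE, adjusted p 0.00137). The groups did not overlap, and the value stayed called when any one library was left out, between -1.46 and -1.25. IAA28 (AT5G25890), a repressor gene known from root development, was at 9.13, 9.04, and 6.89 CPM in UV-C treated phot1phot2 against 19, 11.8, and 18.1 CPM, with a log2FC of -0.97 (adjusted p 6.71e-05). It was short of the limit by a small margin, and was past it without phot1phot2 UV-C replicate 1 (-1.04) or replicate 2 (-1.03) or without wild type UV-C replicate 2 (-1.16), and also without a TMM factor (-1.15). IAA27 (-0.56) and GH3.5 (0.57) also differed in phot1phot2 on adjusted p alone, as did GH3.5 (0.65) in phot2.

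GH3.2 was not called in any comparison by the edgeR quasi-likelihood test, while DESeq2 called it after UV-C in phot2 (1.29, adjusted p 0.00861) and in phot2 against the wild type after UV-C (1.64, adjusted p 0.00373). A single library stood out, which was noticed after its values were seen. It was at 11.2, 3.13, and 2.13 CPM in UV-C treated phot2 against 1.73, 1.45, and 2.09 CPM in the wild type, and the log2FC of 1.63 (adjusted p = 0.018) was 0.58 (adjusted p = 0.344) without phot2 UV-C replicate 1. The change after UV-C in phot2, 1.26 (adjusted p = 0.0157), was 0.21 without the same library. It passed the rule in this comparison without UV-C replicate 2 (1.53) or replicate 3 (1.66), and likewise against the wild type (1.90 and 2.03).

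**Figure D4:**
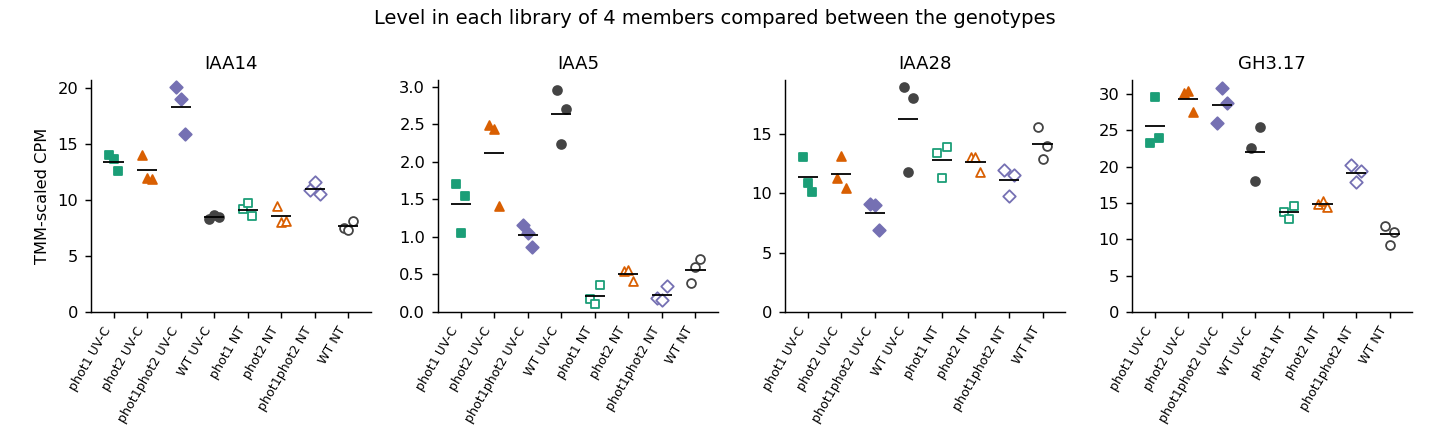
Level in each library, in TMM-scaled CPM, of IAA14, IAA5, IAA28, and GH3.17 in the 3 mutants and the wild type, after UV-C (filled) and non-treated (NT, open), with a line at the mean of 3 libraries. IAA14 is highest in UV-C treated phot1phot2 (15.9 to 20.1 CPM) and lowest in the non-treated wild type (7.31 to 8.13 CPM), and IAA5 after UV-C is lower in phot1phot2 (0.867 to 1.16 CPM) than in the wild type (2.24 to 2.95 CPM).

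Whether the change after UV-C differed between a mutant and the wild type was tested with interaction terms. No member was called by the edgeR test for phot1 (0.00498% of all tested genes were), phot2 (0.368%), or phot1phot2 (1.52%). At an unadjusted p under 0.05 there were 5, 9, and 8 members, against 7.37%, 14.1%, and 24.7% of all tested genes. DESeq2 called 0 in each, and the likelihood ratio test called 0, 1, and 0. IAA14 was the one member past the limit on adjusted p alone in phot1phot2, as were 4.61% of all tested genes, with a change after UV-C that was larger by 0.59 in phot1phot2 than in the wild type (adjusted p 0.00572), its log2FC being 0.74 in phot1phot2 and 0.15 in the wild type. The corresponding differences for phot1 and phot2 were 0.40 (adjusted p = 0.388) and 0.41 (adjusted p = 0.121). For GH3.1 and the members that rose in all 4 genotypes, the difference from the wild type was -0.11 to 0.57 for IAA5, 0.17 to 0.54 for IAA19, -0.21 to 0.38 for GH3.3, 0.06 to 0.15 for GH3.5, and -0.61 to -0.05 for GH3.1. The lowest adjusted p among them was 0.197.

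Other genes of the pathway were taken from lists. Of 11 genes of auxin synthesis, 9 were tested, and TAA1, YUC2, and YUC6 were lower and YUC1 higher after UV-C in phot1, phot2, and the wild type, while TAA1 and YUC6 were lower in phot1phot2. Of all tested genes, 2.09%, 2.34%, 3.55%, and 2.35% were called lower in phot1, phot2, phot1phot2, and the wild type. Calls in the higher direction took 6.37%, 7.9%, 7.2%, and 6.88% in the same order. TAA1, the aminotransferase that starts the main synthesis route, had log2FC values of -1.68 (phot1), -1.18 (phot2), -1.06 (phot1phot2), and -2.66 (wild type). YUC6, a flavin monooxygenase of the second step, had -1.65, -1.41, -1.95, and -1.71, YUC2 had -1.58, -1.05, -0.76, and -1.19, and YUC1 had 1.43, 1.16, 0.82, and 2.02, from at most 24 reads. The change in TAA1 was smaller in size by 1.48 in phot2 (adjusted p 0.00712) and by 1.6 in phot1phot2 (adjusted p 0.00136) than in the wild type, and TAA1 was higher in phot2 than in the wild type after UV-C (1.13). YUC8 was higher in phot1phot2 than in the wild type, by 1.46 without treatment and 1.98 after UV-C, from at most 45 and 15 reads.

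The YUC1, YUC2, YUC8, and TAA1 calls were sensitive to single libraries. YUC1 was not called in phot2 when any one of the 6 phot2 libraries was left out (1.03 to 1.25), nor in phot1 without non-treated replicate 2 (1.41) or 3 (1.27) or UV-C replicate 3 (1.04). YUC2 was not called in the wild type without UV-C replicate 2 (-0.91) or 3 (-1.01), nor in phot2 without non-treated replicate 3 (-0.96) or UV-C replicate 1 (-1) or 2 (-1.01). TAA1 after UV-C in phot1phot2 was -0.89 without non-treated replicate 3 and -0.99 without UV-C replicate 1. YUC8 without treatment was not called in phot1phot2 when any one of the wild type libraries was left out (1.40 to 1.56) or without phot1phot2 replicate 2 (1.44) or 3 (1.41). After UV-C the YUC8 call was lost without wild type replicate 1 (1.54) or phot1phot2 replicate 2 (1.80). The TAA1 difference of phot2 from the wild type lost its call in 12 of the 24 fits that left out a library (adjusted p up to 0.0294), while that of phot1phot2 kept it in all 24. TAA1 in phot2 against the wild type after UV-C lost its call too when wild type replicate 2 (1.05) or 3 (1.11), or replicate 2 of phot2 (1.06), was left out.

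The 6 TIR1/AFB receptor genes held no call after UV-C by the quasi-likelihood test of edgeR, by DESeq2, or by the likelihood ratio test, with 6 at an unadjusted p under 0.05 in phot1 and 5 in each of the other genotypes, a threshold that 54.2% to 59.5% of all tested genes passed. Their median log2FC values were -0.40 (phot1), -0.46 (phot2), -0.33 (phot1phot2), and -0.48 (wild type). The mean of AFB1 went the other way in every genotype, from 19.8 CPM against 14.8 CPM in phot1 to 19.8 CPM against 19.7 CPM in phot1phot2. The means of the other receptor genes were lower after UV-C. Of 15 ARF genes, only ARF16 was called, in the wild type (-1.01), where 2.35% of all tested genes were called lower. ARF16 was not called without non-treated replicate 1 (-0.94) or UV-C replicate 1 (-0.93), nor by DESeq2 (-0.99), with RLE scaling (-0.99), or with a limit of 20 reads (-0.99). At the same unadjusted threshold there were 11, 10, 12, and 13 ARF genes in phot1, phot2, phot1phot2, and the wild type. The 5 TPL corepressor genes held no call by any of the 3 tests, with 1, 2, 3, and 0 at the same unadjusted threshold in phot1, phot2, phot1phot2, and the wild type. Of 7 genes that oxidise auxin or free it from conjugates, AT1G14120 rose in phot2 (1.20) and ILL6, an amidohydrolase, in phot1phot2 (1.16), where 7.9% and 7.2% of all tested genes were called higher. The first of these calls was lost without phot2 non-treated replicate 1 (1.09) or 2 (1.10) or UV-C replicate 1 (0.94) or 2 (1.13). The ILL6 call was lost without a TMM factor (0.92). Of the 5 tested genes of the GH3 family outside the 7 described here, AT5G51470 fell in phot2 (-1.81) and phot1phot2 (-2.01). Of all tested genes, 2.34% and 3.55% were called lower there. AT5G51470 had 2 to 7 reads after UV-C in phot2 against 20 to 37, and 1 to 4 in phot1phot2 against 16 to 27. It reached 5 reads in 14 libraries, every non-treated one among them. Its place among the tested genes thus leaned on the group where it was higher. Its call was lost in phot2 without non-treated replicate 2 (-1.5) or UV-C replicate 1 (-1.59) or 2 (-1.55), and in phot1phot2 without UV-C replicate 3 (-1.55).

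SAUR genes, small early targets of auxin, moved in both directions. Of 18 tested, 6 rose and 3 fell in phot1, 5 and 3 in phot2, 6 and 3 in phot1phot2, and 4 and 3 in the wild type. Of all tested genes, 6.37%, 7.9%, 7.2%, and 6.88% were called higher in the same order. Calls in the lower direction took 2.09%, 2.34%, 3.55%, and 2.35% of them. SAUR19, SAUR22, SAUR23, and SAUR24, which belong to the cluster known for promoting cell expansion, rose in all 4 genotypes, SAUR21 of the same cluster in the 3 mutants, and SAUR20 in phot1 and phot1phot2. SAUR22 had a log2FC of 2.98, 2.78, 3.31, and 2.30 in that order of genotypes, and SAUR24 had 2.11, 1.93, 1.93, and 1.62. SAUR14, SAUR16, and SAUR50 fell in all 4 genotypes, SAUR16 with -2.26, -2.44, -2.44, and -2.35 on the log2 scale and SAUR50 with -1.90, -2.12, -2.10, and -1.62. Without phot1 non-treated replicate 2 (-0.99) or UV-C replicate 2 (-0.94), SAUR14 was short of the limit in phot1. Without a TMM factor, SAUR20 was short of it in phot1phot2 (0.88). SAUR19 to SAUR24 are near-identical copies and multi-mapping reads were not counted, so the split between them is uncertain. No SAUR gene was called between a mutant and the wild type by any of the 3 tests, with 2 to 5 genes at an unadjusted p under 0.05 in each of the 6 comparisons, where 11.9% to 45.8% of all tested genes were.

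**Figure D5:**
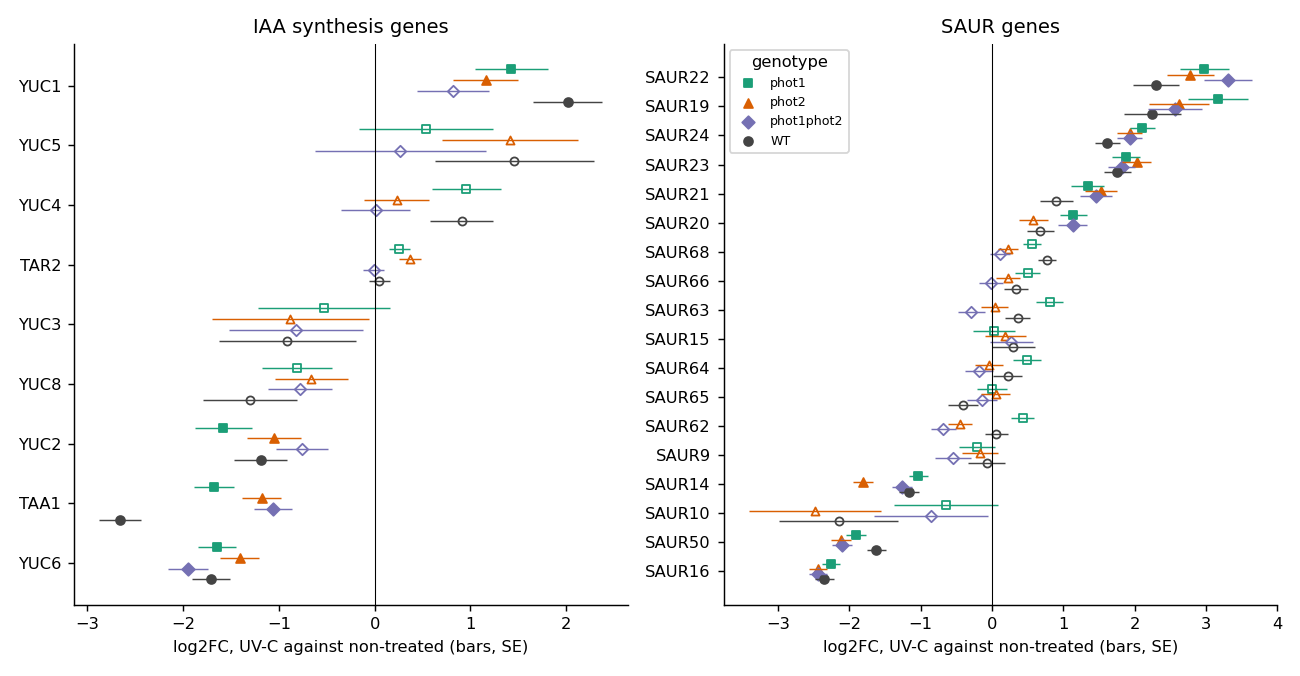
log2FC after UV-C against non-treated for 9 auxin synthesis genes (left) and 18 SAUR genes (right) in the 4 genotypes, ordered by their mean, with bars for the standard error and filled symbols for called genes. TAA1 lies at -2.66 in the wild type and -1.06 in phot1phot2, and SAUR22 and SAUR16 mark the ends of the SAUR list at 3.31 and -2.44 in phot1phot2.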

How the data were processed

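The authors isolated poly-A RNA, sequenced it on a HiSeq instrument, aligned reads with STAR 2.5.2b, and deposited read counts per gene from featureCounts (Subread 1.6.2) over Araport11 exons. The deposited counts were not normalised or filtered. Strand was not used and multi-mapping reads were left out. Counts were tested in R 4.3.3 with edgeR 4.0.16, with DESeq2 1.42.0 and edgeR's likelihood ratio test as alternatives, on the 20094 protein-coding genes that reached 5 reads in 6 or more libraries. Counts were scaled by TMM, and 1 quasi-likelihood model of the 8 groups gave 13 comparisons. A call needed an absolute log2FC above 1 and a p below 0.01 after Benjamini-Hochberg adjustment. Shares of all tested genes called are from this model. Counts of called members from the alternatives have no such share beside them. Values in CPM are per 1000000 scaled reads. GH3.1 reached the count limit in UV-C libraries only, so its fitted values and its place in counts of called members are a description. A gene-level SE is the log2FC divided by the root of the F statistic. The scripts were tested on simulated data. With 3 libraries against 3, an exact permutation test cannot go below p = 0.1. The 3 replicates are biological by the methods of the study.

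Members and lists were chosen with earlier results of these data known. Full values are given for the 8 called members with the largest change after UV-C, those called between genotypes, and the most abundant member of each family. Values in single libraries are also given for IAA17, IAA28, GH3.17, and GH3.2, which lie outside this rule. Of the auxin pathway lists, called genes are named. Clock genes and tissue markers are given by levels, and PIF factors by log2FC. Libraries did not pair by title number (correlations -0.132 to 0.149 in 12 pairs). Symbols, gene types, and promoter letters are from RefSeq TAIR10.1, in which all 36 members have the positions of the deposited table. Replicates differed beyond counting noise (chi-square per degree of freedom 4.35 to 23.2).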

Additional observations from a re-analysis of the deposited data

Results flagged for a closer look

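The change of IAA14 after UV-C differed between phot1phot2 and the wild type by the interaction term, with a difference of 0.59 (adjusted p 0.00572, edgeR). All 3 treated phot1phot2 libraries were above all 3 non-treated ones. The same held in phot1, phot2, and the wild type, so this separation was not particular to phot1phot2. The adjusted p was 0.01 or more under 12 of 35 alternatives, 9 of them among the 24 that left out 1 library, and reached 0.0229.

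The change of TAA1 after UV-C differed from the wild type by 1.48 in phot2 (adjusted p 0.00712) and by 1.6 in phot1phot2 (adjusted p 0.00136), again by the interaction term. TAA1 averaged 8.58 ± 0.678 CPM in UV-C treated phot2, 7.51 ± 0.654 CPM in phot1phot2, and 3.92 ± 0.485 CPM in the wild type (SD, n = 3). Without treatment it averaged 19.5 ± 0.889, 15.6 ± 3.57, and 24.8 ± 6.77 CPM in the same order, with the widest spread in the wild type. The 2 differences share the wild type libraries. The phot2 value had an adjusted p of 0.01 or more under 12 of 35 alternatives, the phot1phot2 value under 0.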

How the results depend on the processing

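Of the 468 counts of members under an alternative, 450 kept their value or stayed within 1.5 times of it. The counts include GH3.1. With no limit on the log2FC the counts were 16 in phot1, 17 in phot2, 15 in phot1phot2, and 15 in the wild type after UV-C (35.2%, 39.8%, 43%, and 37.2% of all tested genes), 6 in phot1phot2 against the wild type without treatment, 1, 2, and 5 in phot1, phot2, and phot1phot2 against the wild type after UV-C, and 1 for the phot1phot2 interaction. The likelihood ratio test gave 1 in phot1 and 1 in phot1phot2 against the wild type without treatment, 5 in phot1phot2 after UV-C, and 1 for the phot2 interaction. DESeq2 gave 1 in phot2 against the wild type after UV-C, and upper quartile scaling gave 4 in phot1phot2. The cause was not tested.

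Leaving out 1 library gave 7 to 8 called members in phot1, 9 to 11 in phot2, 6 to 8 in phot1phot2, and 5 to 7 in the wild type after UV-C. It gave 0 to 1 in phot2 and 2 to 4 in phot1phot2 against the wild type after UV-C, and 0 in the other comparisons. The 4 came without wild type UV-C replicate 2, with IAA28 among the added calls. With the title number as a replicate block the counts after UV-C were 8, 9, 7, and 6 in phot1, phot2, phot1phot2, and the wild type, as without it, and with the library label number they were 8, 9, 7, and 7. Among calls of single genes, 4864 stayed on their side of the rule, 74 lost the call, and 23 gained it, and no log2FC among them changed its sign. Without a TMM factor, 44.9% of the genes called after UV-C in phot1phot2 were higher, against 67% with it, and in phot1, phot2, and the wild type 63.8%, 65.7%, and 63.9%, against 75.3%, 77.1%, and 74.5%. Members with few reads, such as GH3.1, IAA6, and IAA30, are limited by their low counts. The lowest count of each was in a non-treated library, although those libraries were deeper.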
